A study of Mus musculus with 12 samples.

Results

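The subject is the transcriptome of resting wild type follicular B cells from mouse spleen, measured in 3 RNA-seq libraries, which are all the wild type libraries with no stimulation among the 12 libraries of the series. They were chosen by their labels alone: genotype Jmjd1c WT and anti-IgM for 0 h, written here as WT 0 h. The series pairs them with Jmjd1c knockout cells, and with cells of both genotypes after 2 h of anti-IgM, an antibody that crosslinks the B cell receptor. None of those other 9 libraries is used here, no groups are compared, and no test is made. The labels call the material primary FO B cells sorted from spleen, and they give no strain, age or sex. Each library carries its own batch label, Rep1 to Rep3, so animal and batch cannot be told apart. The labels do not say whether the 3 libraries came from separate animals, and every SD measures only the spread between them. Replicate 1 lacked the Y-linked transcripts that replicates 2 and 3 carried, as described below. The libraries were therefore not all of the same sex, and every mean and SD mixes sexes.

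Follicular B cells are the main circulating B cells of spleen and lymph node. They sit in the follicles in a non-dividing state and carry surface IgM and IgD with the Igα and Igβ chains (Cd79a and Cd79b) that signal for it. They take up antigen through that receptor, present it to T cells on MHC class II, and move between blood and follicle by chemokine and sphingosine phosphate receptors. Survival at rest depends on tonic receptor signalling and on the cytokine BAFF.

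The libraries held 10991386, 8121347 and 13796131 counts over 24046 gene rows, in replicates 1, 2 and 3 in that order, which is the order of every set of 3 values given below. Rn45s, the ribosomal RNA precursor, took 1.09%, 12.9% and 0.56% of them (95% Wilson intervals, counting error only, were no wider than 12.858% to 12.904%). It was removed, and values are given as CPM, each gene's count over the library's remaining 10871146, 7075236 and 13718926 counts, scaled to a common total. A gene with 3 counts then stands at 0.276, 0.424 and 0.219 CPM, below which a level cannot be told from 0. Replicate 2 stood apart: Rn45s was highest there, and so were a few other rows (Lars2, Mir6236, Rmrp, Rpph1) and the summed lists of proliferation genes and neutrophil markers, described below. The main summaries were therefore also made without replicate 2. The counts of the libraries differed by more than sampling noise (chi-square per degree of freedom 15.5 to 37.7), so all 3 were kept as separate samples, and log2(CPM + 1) correlated across genes at r = 0.979 to 0.987, a description over genes that are not independent replicates.

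At rest 11106 genes reached 1 CPM in all 3 libraries, 46.2% of the rows, and 7671 rows (31.9%) were at 0 in all 3. The count was 11215 without replicate 2, where fewer libraries had to reach 1 CPM, so it could not fall. Levels spread over 4 orders of magnitude: 8329 genes reached 10 CPM, 2434 reached 100 CPM and 48 reached 1000 CPM in every library. The transcriptome was broad and was not carried by a few products. The most abundant gene, Cd74, held 0.957%, 0.995% and 0.885% of the counts, the top 100 genes held 14.3%, 16.0% and 14.3%, and it took 1048 genes to reach 50% and 5113 genes to reach 90% of the mean profile. Protein-coding genes held 97.4% ± 0.50 of the counts (SD, n = 3). Immunoglobulin segments and genes of the mitochondrial genome are not analysed here, so the products that usually lead a B cell profile do not enter these shares.

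**Figure D1:**
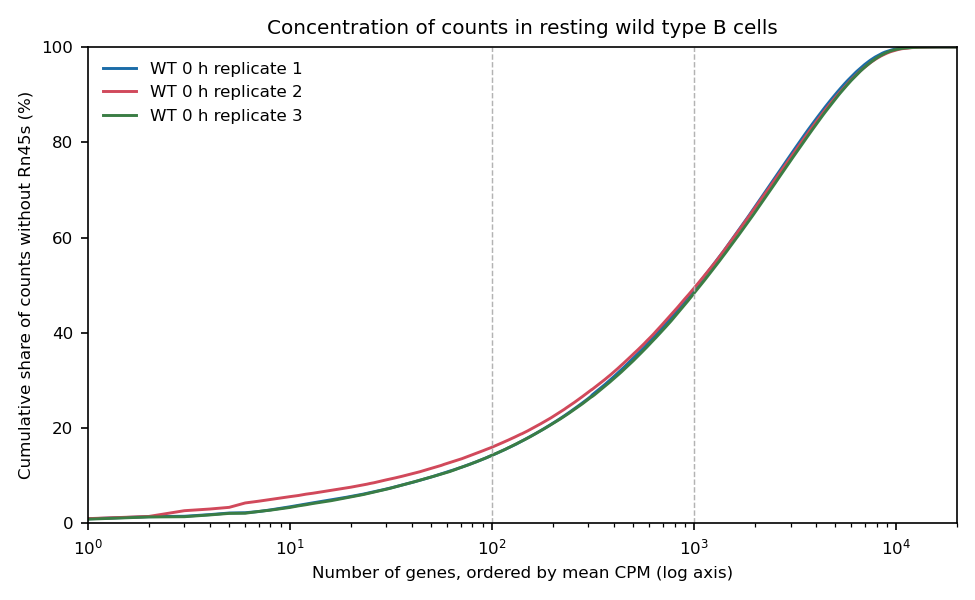
Cumulative share of counts (y axis, %, Rn45s removed) against the number of genes taken in order of mean CPM (x axis, log scale), with a line for each WT 0 h library. The lines of replicates 1 and 3 nearly coincide and pass 14.3% at 100 genes, the first dashed line. Replicate 2 lies above them there at 16.0%, and at 1000 genes, the second dashed line, the 3 stand at 49.1%, 49.4% and 48.3%.

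The sorted label held against marker genes. All 18 measured B lineage markers were at 100 CPM or more in every library. Cd79a, which encodes the Igα chain, stood at 586, 522 and 771 CPM. Ms4a1, which encodes CD20, stood at 530.5, 444 and 649 CPM. Fcer2a, which encodes the low-affinity IgE receptor CD23 that marks follicular cells, stood at 609, 465 and 518 CPM. Cr2, which encodes the complement receptor CD21, was the lowest of the label's own markers by counts at 172, 142 and 134 CPM. No marker of the label was missing from any library. Of 10 follicular markers, 9 were at 100 CPM or more in every library, among them Satb1, Ccr7, Faim3 (Fcmr, the IgM Fc receptor), S1pr1, Cd55, Fcer2a, Cxcr5 and Klf2. The exception, Zbtb16, stood at 1.56, 3.39 and 2.11 CPM. The median marker of the follicular list had a mean of 597 CPM, against 15.5 CPM for the 15 marginal zone markers and 6.37 CPM for the 10 B1 cell markers. These medians are of different genes and are not scaled for length, and no other B cell subset was measured here. The marginal zone markers were not uniformly low: 8 of the 15 were at 10 CPM or more in every library, and 3 at 100 CPM or more. Scaled for length, Mzb1 was the highest of the list. Notch2, the receptor that drives marginal zone fate, stood at 1054, 988 and 1237 CPM, while Cd1d1 stood at 15.1, 10.6 and 20.8 CPM and Cd9 at 4.32, 7.35 and 13.6 CPM.

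Other stages of B cell life were present at low levels. Of 10 immature B cell genes, 5 passed 1 CPM and 4 passed 10 CPM in every library, led by Myb at 35.7, 61.5 and 38.0 CPM. Scaled for length, Vpreb3 was the highest of the list. Igll1, the surrogate light chain λ5, was at 0 in all 3 libraries. Rag1, a subunit of the recombinase that cuts receptor genes, stood at 3.495, 3.39 and 5.18 CPM, and its partner Rag2 at 0.9199, 0.141 and 0.364 CPM. The germinal centre list was led by Bcl6, the repressor that defines that state, at 89.8, 88.6 and 97.8 CPM. Only Bcl6 and Plxnb2 of the 11 germinal centre genes reached 10 CPM in every library. Among 12 plasma cell genes, Irf4 (480.4, 394 and 394 CPM) and Txndc5 (129.8, 142 and 156 CPM) reached 100 CPM in every library. Prdm1, the plasma cell regulator Blimp-1, stood at 13.8, 14.8 and 20.3 CPM, and Tnfrsf17, the plasma cell receptor BCMA, had counts in replicate 2 alone. Igj (Jchain, the joining chain of secreted IgM) stood at 19.5, 44.7 and 109.8 CPM, the widest range of the list, with replicate 3 highest. In the memory and age-associated list, Zeb2 led at 70.6, 68.4 and 82.6 CPM and Tbx21, which encodes T-bet, stood at 5.795, 12.4 and 4.67 CPM.

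Markers of other cell types were low and for the most part were not at 0. In such bulk samples, fewer cells of a type and less RNA per cell cannot be told apart. The 14 T cell markers summed to 273, 403 and 298 CPM, and 10 of them were below 10 CPM in at least 1 library. Cd3e, an invariant chain of the T cell receptor, stood at 7.17, 14.4 and 8.46 CPM. Cd2 (106, 125 and 121 CPM) and Lck (63.7, 71.8 and 45.3 CPM) led the list, and B cells of the mouse are known to carry Cd2. The 10 NK cell genes summed to 22.2, 52.7 and 45.8 CPM and the 11 neutrophil genes to 23.5, 137 and 60.2 CPM. The macrophage list summed to 1342, 1091 and 1557 CPM, of which Apoe (898, 646 and 941 CPM), an apolipoprotein, and Ctss (369, 314 and 412 CPM), the cathepsin S of the class II pathway, made up most. Its more specific members were low, with Lyz2 at 6.07, 25.4 and 21.4 CPM and Csf1r at 1.104, 4.099 and 11.2 CPM. Erythroid genes summed to 44.4, 53.7 and 28.1 CPM, with Car2 the highest. Hba-a1 and Hba-a2 had the same values, 0.736, 5.23 and 0.146 CPM, and these near-identical copies cannot be told apart. Of 8 platelet genes, Itgb3 (147, 199 and 249 CPM) stood alone above 100 CPM, and Pf4 stood at 0.184, 0.141 and 0.0729 CPM. The mast cell and basophil list had no member at 10 CPM in every library, with Kit at 3.31, 27.8 and 4.08 CPM and Gata2 at 0.828, 12.3 and 1.46 CPM, both highest in replicate 2. In the dendritic cell list Tcf4, the factor E2-2, stood at 242, 219.6 and 289 CPM, Siglech at 0.09199, 1.41 and 0.5102 CPM, and Cox6a2 was at 0. Of 12 stromal and endothelial genes, Col3a1, Ccl21a, Ccl19, Emcn and Madcam1 were at 0 in all 3 libraries and Pecam1, which B cells also carry, stood at 226, 208 and 267 CPM.

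**Figure D2:**
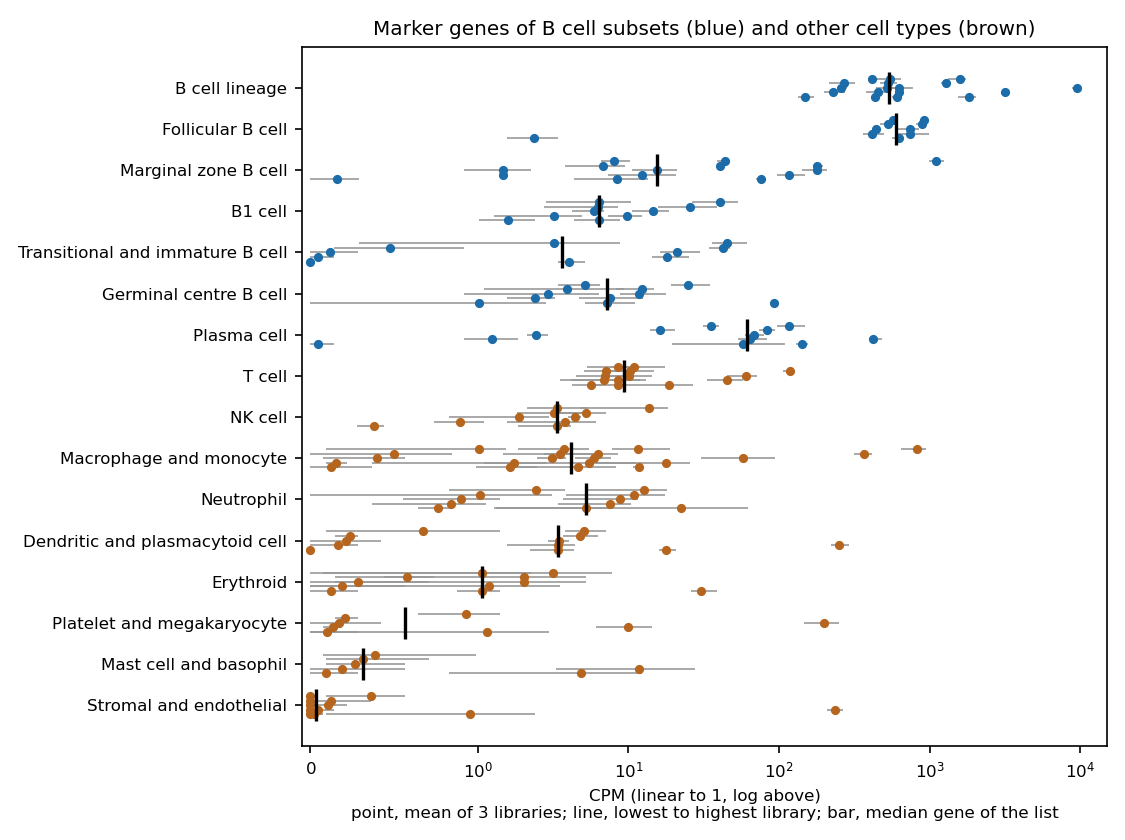
CPM of each marker gene (x axis, linear to 1 and logarithmic above) by marker list (y axis), with a point for the mean of the 3 libraries, a grey line between the lowest and the highest library and a black bar at the median gene of the list. The B lineage and follicular lists lie to the right, with median genes at 536 and 597 CPM, and every other list has its median gene below 100 CPM.

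Ordered by counts, the profile was led by antigen presentation, translation and the cytoskeleton. Cd74, the invariant chain that guides MHC class II to the endosome, was first at 9575, 9953 and 8848 CPM. Eef1a1, the elongation factor that brings charged tRNA to the ribosome, was second at 4508, 4602 and 4610.3 CPM. Actb (cytoplasmic actin) stood at 3445, 3464 and 3729 CPM and Eef2, the factor that moves the ribosome along, at 3368, 3567 and 3238 CPM. Replicates of these 4 genes differed by little. Lars2 and Mir6236 were also among the first 6 by mean CPM, but through replicate 2 alone: Lars2 stood at 856, 12079 and 510.1 CPM and Mir6236 at 615, 9207 and 343 CPM, and they moved with Rn45s. Without replicate 2, Lars2 was at place 140 and Mir6236 at place 290. The other 38 of the first 40 genes were still among the first 40 without that library.

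The rest of the first 40 fell into a small number of roles. Chains of antigen presentation were H2-Ab1, H2-Aa, H2-Eb1, H2-Ob, H2-K1, H2-D1, H2-L and B2m. Surface and signalling genes of B cells included Cd79b (1588 ± 229.9 CPM, mean ± SD, n = 3, as for all values with ±), Ptprc, which encodes CD45 (1282 ± 78.01 CPM), and the kinase Syk (1458 ± 165 CPM). Cell shape and movement were represented by Myh9 (non-muscle myosin), Tmsb4x (thymosin β4, which binds actin monomers), Msn (moesin), Coro1a, Macf1, Arhgef1 and Hmha1 (Arhgap45). Rpl4 and Rpl13a are ribosomal proteins, and Tpt1 encodes the tumour protein TCTP. Ddx5 and Srrm2 act in RNA processing, and Malat1 is a nuclear noncoding RNA that stood at 2452, 3722 and 3799 CPM. Ets1 was the only member of the 197 transcription factors considered below. Serinc3, Ly6e, Shisa5, Laptm5, Scd1 (stearoyl-CoA desaturase), Cerk (ceramide kinase), Stk17b and Gdi2 were also among them, with means between 1243 CPM for Gdi2 and 2338 CPM for Serinc3.

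Counts grow with transcript length, so levels of different genes were compared as CPM per kilobase of annotated exon (CPM per kb). On that scale the order shifted to short transcripts, and 29 of the first 40 genes by CPM were among the first 100. H2-L, with no matched length, and Mir6236, at 123 bp under the limit of 300 bp, were given no place. Lars2 was at place 15 through its counts in replicate 2. Cd74 stayed first at 6679.8 ± 397 CPM per kb, apart from all others. H2-Aa (2814 ± 154 CPM per kb), H2-Ab1 (2696 ± 426 CPM per kb) and Eef1a1 (2549 ± 31.8 CPM per kb) came next. H2-Aa was above Eef1a1 in every library, while the range of H2-Ab1 overlapped both. Actb, H2-K1, B2m and H2-Eb1 followed between 1624 CPM per kb for H2-Eb1 and 1847 CPM per kb for Actb. Macf1, whose transcript is very long, was at place 23 by CPM and at place 897 per kb. Short ribosomal protein genes such as Rps27 (1531 ± 161 CPM per kb), Rplp1 (1293 ± 83.7 CPM per kb) and Rps15 (1183 ± 38.6 CPM per kb) rose into the first 14 places. Rps27rt, also there, is a near-identical copy of Rps27 with nearly the same counts (7381, 4572 and 10827 against 7403, 4597 and 10860). Whether the counting split their reads or counted the same reads at both loci was not tested. Their separate levels and places are therefore uncertain.

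MHC class II genes made up 2.27% of all counts, with 23452, 23444 and 21080.4 CPM in the 3 libraries. All 18 measured genes of the list passed 1 CPM in every library and 15 passed 100 CPM. The peptide-binding chains H2-Aa (3350.2, 3169 and 3002 CPM), H2-Ab1 (3509, 3619 and 2674 CPM) and H2-Eb1 (2841, 2846 and 2446 CPM) stood within a narrow band, lowest in replicate 3 for each. Of the DM and DO chains, which edit the bound peptide, H2-Ob was highest at 1454, 1256 and 1557 CPM and its partner H2-Oa stood at 150.5, 121 and 132 CPM. Per length the gap was smaller, 405 ± 43.7 CPM per kb for H2-Ob and 124 ± 13.6 CPM per kb for H2-Oa. H2-DMb2 (255 ± 15.5 CPM per kb) was higher than H2-DMb1 (127 ± 2.499 CPM per kb) and H2-DMa (92.96 ± 9.53 CPM per kb), though the DMb copies are similar enough for reads to be shared. Ciita, the coactivator that switches class II genes on, stood at 442, 501 and 366 CPM. The invariant chain alone held 43.1% of the list's summed CPM per kb.

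Class II promoters are known to share a block of short elements that ends in the Y box, an inverted CCAAT element bound by NF-Y. The chain genes of class II with an upstream window in the RefSeq promoter table (GRCm38.p6) were searched on both strands for TGATTGG, which contains the inverted CCAAT, in the 250 bases before the annotated start. It was found in 7 of 9 windows, belonging to 7 of 8 genes, against 8.32% of the 21126 windows of all measured genes and 9.80% of the windows of genes at 1 CPM or more in all 3 libraries. H2-DMa, with 2 windows and no match, was the exception. The match lay on the gene's own strand and began between 45 and 102 bases before the start. The stretch from 140 to 21 bases before each start is shown for the 7 genes because it carries the string that they share, with the match in capitals.
H2-Aa, chr17:34287844-34287963, minus strand: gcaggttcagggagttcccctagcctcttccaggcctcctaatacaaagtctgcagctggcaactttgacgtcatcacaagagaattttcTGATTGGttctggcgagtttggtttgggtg
H2-Eb1, chr17:34305727-34305846, plus strand: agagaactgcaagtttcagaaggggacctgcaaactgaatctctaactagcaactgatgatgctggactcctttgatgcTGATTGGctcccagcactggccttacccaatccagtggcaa
H2-Eb2, chr17:34325535-34325654, plus strand: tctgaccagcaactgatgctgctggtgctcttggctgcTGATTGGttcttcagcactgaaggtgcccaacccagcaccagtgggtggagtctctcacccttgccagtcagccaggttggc
H2-Ob, chr17:34238765-34238884, plus strand: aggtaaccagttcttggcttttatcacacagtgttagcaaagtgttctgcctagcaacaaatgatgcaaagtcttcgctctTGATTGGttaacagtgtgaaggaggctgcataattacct
H2-Oa, chr17:34092239-34092358, plus strand: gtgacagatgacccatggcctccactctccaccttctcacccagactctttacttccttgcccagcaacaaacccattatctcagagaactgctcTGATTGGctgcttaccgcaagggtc
H2-DMb1, chr17:34153051-34153170, plus strand: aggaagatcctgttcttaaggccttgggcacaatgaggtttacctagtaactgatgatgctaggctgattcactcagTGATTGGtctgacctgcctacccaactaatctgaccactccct
H2-DMb2, chr17:34145109-34145228, plus strand: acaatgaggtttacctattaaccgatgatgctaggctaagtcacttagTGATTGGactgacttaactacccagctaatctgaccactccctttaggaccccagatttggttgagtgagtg
A match here is a string in a reference sequence and says nothing of what was bound in these cells. H2-Ab1 and Cd74, among the most abundant members of the list, have no window in the table and were not searched.

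MHC class I genes summed to 13066, 11986 and 11971 CPM, and 27 of 28 passed 1 CPM in every library. H2-K1 (3198, 2775 and 2706 CPM) and H2-D1 (2084, 1925 and 1913 CPM), the classical heavy chains, and B2m, the light chain they share (1435, 1266 and 1556 CPM), led. H2-L had 1543, 1465 and 1397 CPM, but H2-L, H2-D1 and the H2-Q genes are close copies of each other and their separate levels are uncertain. H2-Q4 (716, 613 and 539 CPM) and H2-Q6 (519, 453 and 412 CPM) were the highest of the nonclassical genes. The liver gene H2-Q10 stood at 0.552, 0.848 and 0.729 CPM. Among loading factors, Calr (398, 513 and 351 CPM), Canx (337, 354 and 328 CPM), the transporter subunit Tap1 (351, 330.4 and 332 CPM) and Tapbp, tapasin (339, 325 and 329.7 CPM), lay close together.

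Every measured gene of the B cell receptor pathway was detected. All 52 genes of the list were at 1 CPM or more in every library, 36 were at 100 CPM or more, and the list summed to 16301, 15139.8 and 16539.6 CPM. Of the signalling pair, Cd79b stood at 1703, 1324 and 1739 CPM and Cd79a at 586, 522 and 771 CPM. Per length, Cd79b had 1109.9 ± 161 CPM per kb and Cd79a 429.8 ± 88.8 CPM per kb, and Cd79b was higher in every library. Syk, the kinase recruited to the phosphorylated pair, led the kinases at 1422, 1314 and 1639 CPM. Lyn (528, 517 and 544 CPM) stood close to Csk (587, 538 and 580.4 CPM), the kinase that holds Src family members in check, and Blk stood at 535, 456 and 378 CPM. Prkcb, the protein kinase C that leads to NF-κB, stood at 668, 738 and 591 CPM, and Pik3cd, the PI3K subunit of leukocytes, at 655, 613 and 682 CPM. Inpp5d, the lipid phosphatase SHIP1 that opposes PI3K, stood at 925, 964 and 834 CPM and was the highest of the 12 genes in the PI3K and phosphatase class. Btk (439, 349.95 and 411 CPM), Plcg2 (369, 386 and 315 CPM) and the adaptor Blnk (273, 232 and 305 CPM), named here for their place in the pathway after their values were seen, lay in the same band.

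Of 30 inhibitory receptors and phosphatases, 25 passed 1 CPM and 13 passed 100 CPM in every library. Cd22, a sialic acid receptor that recruits SHP-1, stood at 657, 559.8 and 591 CPM. Cd72 (454, 387 and 401 CPM) and Btla (454, 369.7 and 485 CPM) were close to it. Siglecg, the other sialic acid receptor of B cells, stood at 314, 233 and 433 CPM and was highest in replicate 3. Fcgr2b, the inhibitory IgG receptor, stood at 189, 173 and 166 CPM, and Ptpn6, which encodes SHP-1, at 431, 386 and 381 CPM. Pdcd1, which encodes PD-1, stood at 2.76, 3.53 and 1.46 CPM and Havcr2, which encodes TIM-3, at 0.4599, 1.55 and 1.75 CPM. Among Fc and complement receptors, Faim3 led at 844, 615 and 764 CPM, followed by the complement regulator Cd55 at 563, 536 and 603 CPM. Fcrla, an Fc receptor-like protein kept inside the cell, stood at 535, 443 and 589 CPM and Fcrl1 at 199, 192 and 281 CPM. The activating receptor chain Fcer1g stood at 1.56, 4.099 and 8.24 CPM.

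Receptors for homing and adhesion spanned a wide range. The 76 measured genes summed to 9552, 9336 and 10476 CPM, and 57 passed 1 CPM and 21 passed 100 CPM in every library. Cxcr4, the receptor for CXCL12, led at 1214, 1056 and 904 CPM. Ccr7, which directs cells toward the T cell zone, stood at 912, 951 and 813 CPM. Cxcr5, which directs them into the follicle, stood at 416, 453 and 449.96 CPM. Per length the order was kept, with 586 ± 85.8, 451 ± 35.8 and 152 ± 7.18 CPM per kb for Cxcr4, Ccr7 and Cxcr5, and the 3 ranges did not overlap. S1pr1, the sphingosine phosphate receptor used to leave lymphoid organs, stood at 676, 564 and 637 CPM, and P2ry10, a lysophospholipid receptor, at 633, 697 and 784 CPM. Itga4, the α4 integrin chain, stood at 512, 499 and 682 CPM and Cd37, a tetraspanin of B cells, at 627, 622 and 626 CPM. Chemokine receptors were thus concentrated on a few genes: of 19, 10 passed 1 CPM and 4 passed 100 CPM in every library, and Cxcr4 held 46.2% of their summed CPM per kb.

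The 62 cytokine and TNF family receptor genes summed to 4987, 5257 and 4976 CPM, of which 52 passed 1 CPM and 13 passed 100 CPM in every library. Tgfbr2, the type II receptor for TGF-β, stood at 723, 670.4 and 679.6 CPM. Il2rg, the common γ chain, stood at 511, 487 and 481 CPM. Its partners Il4ra and Il21r followed, Il4ra at 409, 414 and 375 CPM and Il21r at 389.7, 413 and 311 CPM. Ifnar1, a chain of the type I interferon receptor, stood at 308, 379 and 346 CPM, and Il10ra at 291, 306 and 287 CPM. Tnfrsf13c, which encodes the BAFF receptor, stood at 301, 253 and 312 CPM and held 49.3% of the summed CPM per kb of the 21 TNF receptor family genes. Per length Il2rg was the highest of the whole list at 295 ± 9.45 CPM per kb, above Tgfbr2 at 84.4 ± 3.42 CPM per kb.

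Of 12 Toll-like receptors, 8 passed 1 CPM and 0 passed 100 CPM in every library. Unc93b1, the chaperone that carries nucleic acid sensing receptors to the endosome, stood at 618, 542 and 794 CPM. Per length it had 287 ± 57.01 CPM per kb, above the 32.3 ± 5.06 CPM per kb of Tlr9. Tlr9, the sensor of CpG DNA, was the highest receptor at 93.2, 116 and 128 CPM, and Tlr1 stood at 75.98, 74.8 and 112 CPM. Tlr7, the sensor of single-stranded RNA, stood at 17.4, 12.01 and 50.9 CPM, with replicate 3 far above the others. Tlr4 stood at 9.11, 11.4 and 16.3 CPM and Tlr2 at 4.97, 6.502 and 11.01 CPM. Tlr5, the flagellin receptor, was at 0 in all 3 libraries, and Tlr8 (0.184, 0.141 and 0.364 CPM) and Tlr11 were under 1 CPM. Ly86, which encodes MD-1, stood at 94.5, 79.6 and 101 CPM, and its partner receptor Cd180 (RP105) at 49.5, 58.8 and 81.8 CPM.

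Of the surface molecules that B cells show to T cells, Icosl, the ligand of ICOS, stood at 403, 393 and 388 CPM and Cd86 at 199.7, 242 and 252 CPM. Cd83 stood at 654, 585 and 432 CPM, highest in replicate 1. Cd40, which receives T cell help, stood at 90.2, 88.8 and 82.5 CPM. Cd80, the partner of CD86 on activated cells, stood at 0.9199, 1.696 and 1.82 CPM, and Cd70 was at 0 in all 3 libraries. Cd69, an early sign of activation, stood at 140.00, 113 and 90.02 CPM. Across all 200 receptors and surface proteins considered, 156 passed 1 CPM, 101 passed 10 CPM and 51 passed 100 CPM in every library. Per length Cd52, a very short glycoprotein, was first at 849 ± 76.2 CPM per kb, and its range touched that of Ly6e at 696 ± 76.8 CPM per kb. Cd52 had been at place 18 of the class by CPM. The largest losses of place per length were those of Il6st and Itga4, 30 places each, and the largest gains were those of Tigit, Fcer1g and Cd48, by 34, 32 and 31 places.

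**Figure D3:**
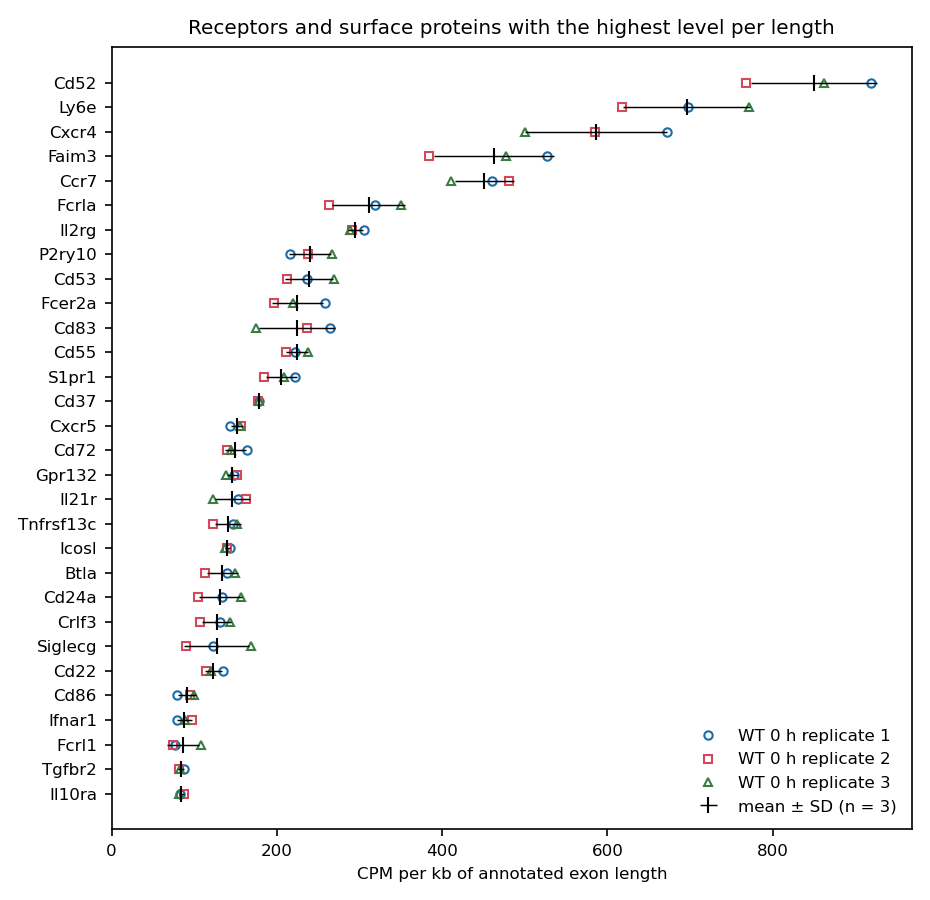
CPM per kb of annotated exon (x axis) in each WT 0 h library (open symbols) with mean ± SD (black, n = 3) for 30 of the receptors and surface proteins with the highest means. Cd52, Ly6e, Cxcr4, Faim3 and Ccr7 stand above the rest, and from Il2rg downward the ranges of neighbours overlap in most cases.

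Transcription factors were numerous at moderate levels. Of 197 factors considered, 151 passed 1 CPM, 126 passed 10 CPM and 76 passed 100 CPM in every library, and 16 were at 0 in all 3. Ets1, which holds back plasma cell differentiation, was first by counts at 1459, 1687 and 1688 CPM. Foxp1, which keeps follicular B cells quiescent, stood at 1177, 969.9 and 902 CPM, and Pou2af1, the coactivator OCA-B of octamer-binding factors, at 819.6, 797 and 1164 CPM. Satb1, a chromatin organiser, stood at 959, 886 and 898 CPM and Mef2c at 786, 669.9 and 891 CPM. Bach2, the repressor that opposes Blimp-1, stood at 859.9, 629.8 and 580.2 CPM, highest in replicate 1. Ikzf3, which encodes Aiolos, stood at 616, 616 and 567 CPM and Spib, the ETS factor of B cells, at 573, 570.02 and 594 CPM. The factors that set B cell identity were lower by counts: Ebf1 stood at 444, 411 and 438 CPM and Pax5 at 284, 245 and 242 CPM.

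Per length the leading factors were Pou2af1 (364 ± 80.7 CPM per kb) and Ets1 (317 ± 25.9 CPM per kb), whose ranges overlapped. Klf2, a quiescence and trafficking factor, came next at 223 ± 38.7 CPM per kb, with 267.0, 194.6 and 207.3 CPM per kb in the libraries, and then Spib at 208 ± 4.67 CPM per kb. Their ranges overlapped as well. Foxp1 (129 ± 18.2 CPM per kb) and Satb1 (79.5 ± 3.39 CPM per kb) were at places 9 and 23, against 2 and 4 by CPM. The factors that lost most places were Mga (47), Tcf4 (46), Zfp318 (41), Pou2f1 (39) and Nfat5 (37). Lyl1 (40), Sp110 (39), Nr1h2, Max and E2f4 (37 each) gained most. Factors at 0 in all 3 libraries were Klf14, Klf15, Klf17, Sp5, Sp7, Sp8, Sp9, Foxp2, Foxd1, Foxa2, Etv1, Etv4, Batf3, Rxrg, Rorb and Esr2.

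**Figure D4:**
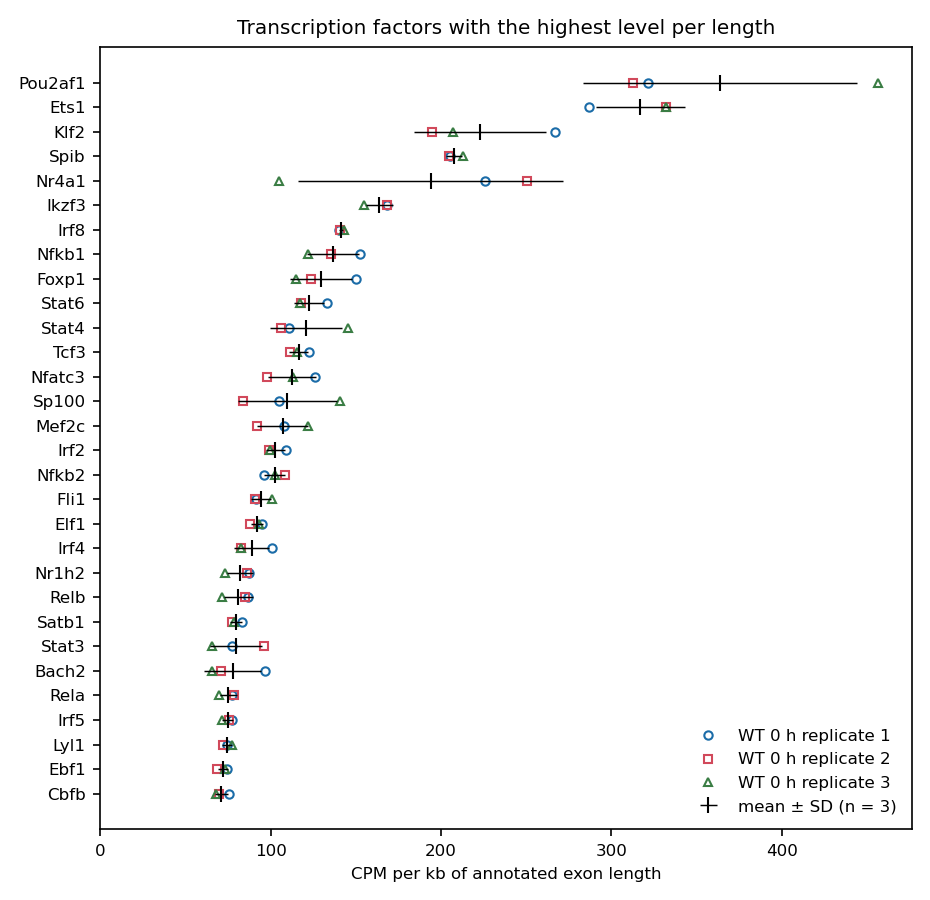
CPM per kb of annotated exon (x axis) in each WT 0 h library (open symbols) with mean ± SD (black, n = 3) for the 30 transcription factors with the highest mean. Pou2af1 and Ets1 lead at 287 CPM per kb or more in every library, Irf8 and Spib have the tightest points near the top, and Nr4a1 spans 105 to 251 CPM per kb.

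Of the KLF and SP zinc finger factors, Klf2 (493, 359 and 383 CPM), Klf13 (399, 438 and 344 CPM) and Sp1 (341, 332 and 364 CPM) stood highest by counts. Sp100, Sp110 and Sp140, which are counted among the 197, are nuclear body proteins of another family, and Sp100 stood at 398, 318 and 535 CPM. In the FOX list Foxo1, the factor that PI3K signalling keeps out of the nucleus, stood at 385, 412 and 419.6 CPM, second to Foxp1, and Foxp4 at 287, 276 and 209.8 CPM. In the ETS list Elf1 (409.7, 382 and 404 CPM) and Fli1 (303, 301 and 335 CPM) followed Ets1 and Spib. Irf8 was the most even of the interferon regulatory factors at 482, 483 and 491 CPM. All 5 NF-κB subunits passed 100 CPM in every library, Nfkb1 leading at 629, 559 and 503 CPM, with Nfkb2 at 405, 458 and 432 CPM, Rel at 332, 347 and 263 CPM and Rela at 210.4, 213 and 188 CPM. Their inhibitor Nfkbia stood at 337, 296 and 309 CPM and was the highest of the list per length at 199 ± 13.3 CPM per kb. Of the STAT factors, Stat3 (479.6, 596 and 408 CPM) and Stat6 (501, 444 and 441 CPM), which transmits the IL-4 signal, led. Nfatc3 (778, 604 and 698 CPM) was above Nfatc1 (280.01, 274 and 242 CPM) and Nfatc2 (49.3, 46.1 and 42.6 CPM) in every library, also per length, and Nfatc4 had counts in replicate 2 alone. Among 33 nuclear receptors, Nr4a1 led at 605, 672 and 281 CPM and the glucocorticoid receptor Nr3c1 followed at 289, 204 and 313 CPM.

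The list of AP-1 and immediate early genes was not silent in the unstimulated cells. Its 38 genes summed to 7701, 7636 and 5844 CPM, of which the 13 AP-1 genes made up 1240, 1519 and 861 CPM. Its highest member was Btg1, which restrains proliferation, so the sum by itself is no measure of activation. Of the 35 genes in the list that passed 1 CPM in every library, 12 were highest in replicate 1, 23 in replicate 2 and 0 in replicate 3. Over all 11106 genes 42.3% were highest in replicate 3. Jund, the AP-1 member of resting cells, stood at 584, 575 and 423 CPM, and Junb at 394, 512 and 223 CPM. Fos (20.5, 54.8 and 11.7 CPM) and Fosb (16.5, 51.7 and 6.998 CPM), named after their values were seen, were highest in replicate 2. Btg1 (1110.3, 948 and 915 CPM) and Btg2 (595, 603 and 547 CPM), which restrain proliferation, and the RNA-binding decay factors Zfp36l1 (856, 753 and 675 CPM) and Zfp36l2 (495, 529.7 and 413 CPM) varied less in proportion than Fos and Fosb. Heat shock genes summed to 3497, 3520.2 and 3166 CPM, also lowest in replicate 3, with Hsp90ab1 at 1182, 1303 and 1041 CPM, and the part of cell handling in either list was not tested.

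Cyclins of G1 with their kinases summed to 367, 467 and 435 CPM, and none passed 100 CPM in every library. Cdkn1b, the inhibitor p27, stood at 279, 264 and 287 CPM, and Txnip, an inhibitor of glucose uptake, at 910.02, 348 and 752 CPM with replicate 2 lowest. Ccnd3 stood at 115, 98.1 and 113 CPM and Ccnd2 at 48.7, 135 and 124 CPM, where replicate 1 was low, while Ccnd1 stood at 1.66, 2.69 and 2.92 CPM. Myc stood at 122, 144 and 83.7 CPM and its partner Max at 115, 106 and 107 CPM, and Mlxip led that network at 456, 395 and 451 CPM. The pocket protein Rbl2 (p130), which holds E2F targets off in quiescent cells, stood at 159, 151 and 171 CPM, and E2f4 was the highest E2F at 103, 103 and 93.7 CPM. No gene of the 29 for S and M phase was at 100 CPM in every library. Mcm6 (107, 142 and 87.5 CPM) and the other Mcm genes, which load the replicative helicase, led, and Mki67, a marker of cycling cells, stood at 10.2, 104 and 14.8 CPM. All 26 proliferation genes that passed 1 CPM in every library were highest in replicate 2, where 32.2% of all 11106 genes were highest. The whole list summed to 811, 1207 and 796 CPM, on average 938 CPM with replicate 2 and 804 CPM without it.

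Survival genes were dominated by Mcl1, the short-lived guardian of mature B cells. It stood at 931, 787 and 975 CPM and held 83.1% of the summed CPM per kb of the 9 survival genes. Bcl2 stood at 66.6, 68.7 and 106 CPM and Bcl2l1, which encodes BCL-XL, at 12.1, 15.4 and 13.7 CPM. Of the effectors, Bax stood at 80.9, 68.7 and 79.5 CPM and Bak1 at 31.4, 34.5 and 26.5 CPM, while Bok was below the level of 3 counts in all 3 libraries or at it (0.184, 0.424 and 0.146 CPM). Among the BH3-only genes that oppose survival, Bcl2l11, which encodes BIM, led at 157, 254 and 184 CPM, followed by Bmf at 125, 90.2 and 81.3 CPM. Hrk and Bcl2l10 were at 0. The Bcl2a1 genes are near-identical copies, and their separate values are uncertain.

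The gene that the series targets, Jmjd1c, a JmjC family member related to the H3K9 demethylases, stood at 417, 382 and 345 CPM in these wild type cells. Of 24 demethylase genes it came by counts after Kdm7a (439, 403 and 451 CPM), Kdm5a (428, 408 and 409 CPM) and Kdm2a (393, 401 and 394 CPM). Of the 24, 20 passed 10 CPM and 14 passed 100 CPM in every library. Per length, Kdm3b (48.5 ± 1.805 CPM per kb), Kdm7a (45.04 ± 2.62 CPM per kb), Jmjd1c (42.6 ± 4.04 CPM per kb) and Kdm2a (40.7 ± 0.461 CPM per kb) lay close together. The whole family was not even, since 2 of the 24 were under 1 CPM in all 3 libraries. Kdm6b, the H3K27 demethylase that is induced by stimuli, stood at 319, 368 and 198 CPM with replicate 3 lowest. Kdm5c (344, 238 and 234 CPM) and Kdm6a (218, 109 and 122 CPM), both on the X chromosome, were highest in replicate 1, and their Y-linked relatives Kdm5d (0.184, 72.9 and 91.99 CPM) and Uty (0.09199, 45.4 and 53.7 CPM) were near 0 there.

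Ribosomal protein genes held more counts than any other list described here. The 86 cytosolic ribosomal protein genes summed to 38162, 39292 and 40249 CPM, 3.92% ± 0.10 of all counts, and 79 of them passed 100 CPM in every library. Rpl4 was even at 1669, 1662 and 1666 CPM. Rpl10l, the copy used in the testis, was at 0. Translation factors added 19165, 19699 and 19032 CPM, of which Eef1a1 and Eef2 were the largest, followed by Tpt1 (1265, 1261 and 1404 CPM), the poly(A) binding protein Pabpc1 (998, 1101 and 919.8 CPM) and Eif4g2 (992, 932 and 997 CPM). The cytoskeleton list summed to 17229.8, 17580.5 and 17986 CPM, and actin and its binding proteins made up nearly all of it, since the 11 tubulin genes summed to 755, 786 and 694 CPM. Ezr, ezrin, stood at 977, 1244 and 822 CPM, Lcp1, an actin bundler of leukocytes, at 724, 749.5 and 749 CPM, and Pfn1, profilin, at 659, 649.9 and 688 CPM.

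Energy metabolism was spread over many genes at low levels. The 72 nuclear genes of the respiratory chain and ATP synthase all passed 1 CPM and summed to 4352, 4496 and 4532 CPM, with Atp5a1 at 494, 525 and 479 CPM and Atp5b at 498, 521 and 449.5 CPM. The 23 glycolytic genes summed to 1813, 1869 and 1787 CPM, with Aldoa (364, 333 and 395 CPM) and Pkm (259.8, 281 and 256 CPM) leading. Gapdh, often used as a reference gene, stood at only 108, 119.7 and 109 CPM, and since it has many processed copies in the mouse genome this value is uncertain. Of the 13 common reference genes, Hprt (74.8, 72.1 and 74.1 CPM) stood close in all 3 libraries. Among long noncoding RNAs, Neat1 (741, 887 and 929 CPM) and Gas5 (189.8, 183 and 212 CPM) followed Malat1, and H19 was at 0.

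Some large families were nearly silent. Of 1122 olfactory receptor rows, 1059 were at 0 in all 3 libraries and 5 passed 1 CPM in every library, the highest being Olfr99 at 7.17, 4.95 and 5.47 CPM. None of 338 vomeronasal receptor rows passed 1 CPM. By contrast 288 of 362 zinc finger rows named Zfp and 189 of 374 solute carrier rows passed it. Promoter composition followed the same divide: the median window had 16 CG dinucleotides in the 250 bases before the start for genes at 1 CPM or more in all 3 libraries and 3 for genes at 0 in all 3. The string TATAAA, searched on both strands, was in 6.16% of the windows of expressed genes and in 21.3% of those of silent genes, against 11.2% of all. Within the 100 genes with the most counts it was in 15.8% of windows. The string CCGGAAGT, of the kind ETS factors bind, was in 6.44% of the windows of expressed genes, 0.707% of those of silent genes and 3.91% of all. CCGGAAGT holds a CG and TATAAA does not, so neither gap between expressed and silent genes can be told apart from the CG content of the windows. These are descriptions of letters in reference windows, and many genes have several windows.

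Most genes were steady between the libraries. The median coefficient of variation over the 11106 genes was 10.8%, and 79.7% of them differed by less than 1.5-fold between the lowest and the highest library. Of 8673 genes with a mean of 10 CPM or more, 52 differed by 3-fold or more. Of these 52, 28 were highest in replicate 2, 19 in replicate 3 and 5 in replicate 1. Sex-linked genes had the widest ranges. Xist, the RNA that coats the inactive X chromosome of females, stood at 1337, 48.5 and 1.24 CPM. The Y-linked gene Ddx3y stood at 0.184, 284 and 251 CPM and Eif2s3y at 0.09199, 119 and 85.2 CPM. Replicate 1 thus had Xist with Y-linked genes near 0, replicate 3 had the reverse, and replicate 2 had Y-linked genes at full level with some Xist. The 3 libraries were therefore not all of the same sex. Tsix, which overlaps Xist on the other strand, stood at 66.5, 9.89 and 0.219 CPM, and its reads cannot be told apart from those of Xist without strand.

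The widest autosomal ranges were mostly set by replicate 2. Mpo, the myeloperoxidase of neutrophil precursors, stood at 3.68, 62.5 and 1.31 CPM, and the mucin gene Muc13 at 2.12, 34.8 and 1.09 CPM. The histone genes Hist1h4d (1.47, 33.4 and 0.729 CPM) and Hist1h1d (2.58, 35.3 and 0.875 CPM) and the RNA components Rmrp (24.7, 413 and 9.69 CPM) and Rpph1 (21.6, 348 and 9.26 CPM) were highest there as well. All 14 T cell markers were highest in replicate 2, against 32.2% of all 11106 genes. Whether Rn45s, other cells or handling bears on any of these was not tested. Among autosomal genes outside these groups, Slc15a2, a peptide transporter, stood at 0.828, 211 and 306 CPM, nearly absent from replicate 1 and abundant in the others. Eps8l1 went the other way, at 58.8, 1.41 and 1.53 CPM.

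Interferon-stimulated genes were highest in replicate 3. Of the 36 interferon-stimulated genes that passed 1 CPM in every library, 35 were highest there, while over all genes 42.3% were highest in that library. The list summed to 3529, 3080.04 and 4709 CPM. Ly6e alone stood at 1717, 1521 and 1899 CPM, Ifi203 at 132, 88.8 and 259 CPM and Trim30a at 129, 100.5 and 277 CPM. Parp14 (152, 126 and 259.9 CPM) and Stat2 (133, 111 and 182 CPM) had the same order. The macrophage list was also highest in replicate 3, with 11 of its 13 genes that passed 1 CPM. The part of batch, animal or sex in this was not tested. The large families were steady by comparison, and the summed CPM of ribosomal proteins, translation factors, the cytoskeleton, the respiratory chain and glycolysis had an SD of less than 3% of the mean.

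**Figure D5:**
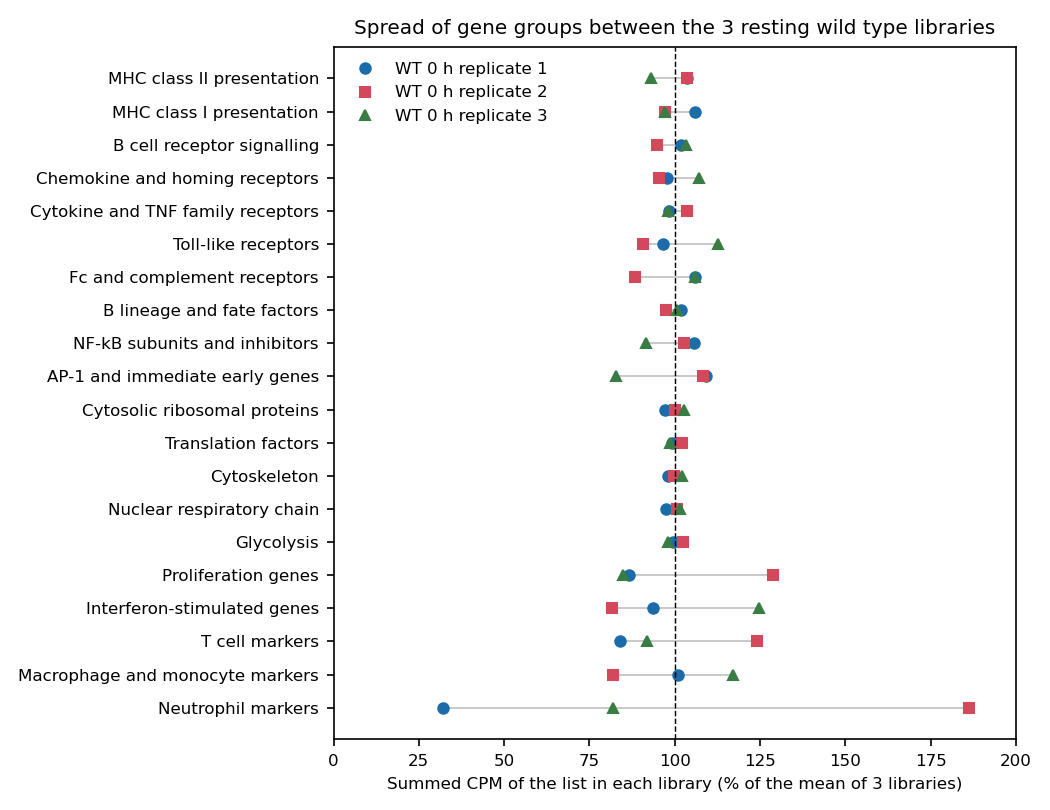
Summed CPM of each gene list in each WT 0 h library (x axis, % of the mean of the 3 libraries, dashed line at 100%) by list (y axis), with 1 symbol per library. Ribosomal proteins, translation factors, cytoskeleton, respiratory chain and glycolysis lie within a few percent of their means, while proliferation genes and neutrophil and T cell markers are highest in replicate 2 and interferon-stimulated genes are highest in replicate 3.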

How the data were processed

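RNA was poly(A)-selected and made into libraries with an NEBNext Ultra kit, per the labels' protocols. Reads were aligned with STAR to mm10, per the submitters' processing notes; no source used here gives the counter, its annotation or its use of strand. The deposited files hold whole-number counts per gene, as the authors made them, with depths of 8121347 to 13796131 counts per library. Of 24046 rows, 27 carry date-like symbols, and Rn45s, the row that took 0.56% to 12.9% of counts, was left out.

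CPM were computed with pandas 2.3.3 on the totals without Rn45s, the mean and SD were taken over the 3 WT 0 h libraries, and CPM per kb used the exon union of GENCODE M21 (GRCm38) for the 98.2% of rows with a match, 846 of them through a synonym, ranking only genes of 300 bp or more. TMM and RLE factors came from edgeR 4.0.16 in R 4.3.3, and the calculations were checked on simulated data. Promoter letters are from RefSeq (GRCm38.p6). No groups were compared and nothing was tested. Named genes are the 40 with the highest mean CPM, up to 8 leading members of each of 54 lists and any member at 0, any member of lists of 30 or fewer, the 15 with the widest range at a mean of 10 CPM or more, and up to 5 whose place shifted most per kb in either direction; other names are marked where they occur. The genes and lists were chosen with earlier results of these data known. Intervals and the limit of 3 counts cover counting error only. The 9 other libraries were left out because the description concerns WT 0 h cells alone. A few genes that the naming rule covers are not reported here.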

Additional observations from a re-analysis of the deposited data

How the results depend on the processing

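Under TMM-scaled and RLE-scaled totals the number of genes at 1 CPM in all 3 libraries stayed within 1.5 times its main value, and the share on the top 100 genes and the sums of 13 lists moved by less than 1 SD between libraries. They did so too with Lars2, Mir6236, Rmrp and Rpph1 also left out, an alternative chosen after seeing the data. Of these 15 results, 5 moved by 1 SD or more when Rn45s was kept in the total: the summed CPM was 16747 for the cytoskeleton, 37333 for ribosomal proteins, 1733 for glycolysis, 4243 for the respiratory chain and 18347 for translation factors. The limit for each sum is its own SD, so passing it depends on the spread between libraries and does not rank lists by sensitivity. MHC class II, with an SD of 1367 CPM, fell from 22659 to 21527 CPM without passing it. The cytoskeleton, with an SD of 378 CPM, fell from 17599 CPM and passed it. The count of genes was 11105 at 10 counts in 3 libraries and 11555 at 1 CPM in at least 2. Leaving out each library in turn gave 11199 to 11353 genes and 14.4% to 15.2% for the top 100. That gene count could not fall, because fewer libraries then had to reach 1 CPM. Leaving out immunoglobulin and mitochondrial genes tested nothing, since almost no such row is used here. Of the 40 genes first by CPM, 19 were first by CPM per kb, also with the median transcript length (chosen after seeing the data), 38 without replicate 2. No paired analysis was possible because no groups are compared. Depth limits levels below 3 counts, and shared reads of close copies and overlapping genes limit the separate values of the H2, Rps27, Hba, Bcl2a1, Gapdh and Xist genes.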

Other observations

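Several other genes differed by more than 3-fold between the 3 libraries and were chosen after their values were seen. Cdk5rap1 stood at 14.4, 17.4 and 71.5 CPM, Inppl1 at 27.0, 23.9 and 99.9 CPM and Sspn at 21.98, 15.3 and 69.1 CPM, all highest in replicate 3. Slfn5, a member of an interferon-responsive family, stood at 32.2, 24.6 and 99.7 CPM and was highest in the same library. Kcnn4, a calcium-activated potassium channel of lymphocytes, stood at 10.0, 35.8 and 12.7 CPM, and Cdk6 at 19.4, 53.4 and 17.6 CPM, both highest in replicate 2. Nedd4, a ubiquitin ligase, stood at 14.5, 47.3 and 14.3 CPM with replicate 2 highest. Lamb3, a laminin chain, stood at 13.5, 13.0 and 39.1 CPM with replicate 3 highest. The heat shock gene Hspa1b ran the other way, at 19.2, 13.1 and 6.12 CPM with replicate 1 highest.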
